A study of Mus musculus with 4 samples.

Results

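The proteasome subunit genes were taken as all mouse gene symbols that begin with Psma, Psmb, Psmc, Psmd or Psme and a digit, apart from Psmb8 and Psmb9, with at least 20 UMIs over the 4 libraries. Of 30408 gene symbols, 45 had such a name and 43 had enough UMIs. Psmb11 with 2 UMIs and the pseudogene Psmb6-ps with 1 UMI fell short, and the members nearest the limit were Psma8 with 224 UMIs and Psmb6-ps2 with 580. The 43 genes comprise 8 alpha and 8 beta genes of the 20S core, 6 ATPase and 11 non-ATPase genes of the 19S regulatory particle, 3 chaperones of its assembly (Psmd5, Psmd9 and Psmd10) and 5 activator genes. Another 2 share only the name: Psmc3ip encodes a cofactor of recombination, and Psmb6-ps2 is annotated as a processed pseudogene.

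The cells came from tumours of MB49, a bladder carcinoma line established from a male mouse, carried by male or female mice and sorted on CD45, the surface protein that marks leukocytes. Libraries of unique molecular identifiers (UMIs, tags that count captured RNA molecules) came from BD Rhapsody, a microwell capture platform, 1 for each of male CD45-positive, female CD45-positive, male CD45-negative and female CD45-negative cells. The labels name no treatment and no engineered allele in any group. No strain, age or number of tumours per library is given in the sources used here. With 1 library per group, host sex and library cannot be told apart, no test was made, and every interval below is a 95% interval of counting error alone.

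The libraries held 37705608 to 62273035 UMIs, and 19375 of 22115 barcodes were kept as cells. Ptprc, the gene of CD45, measured 742 and 648 CPM (UMIs of a gene per 1000000 UMIs of the summed cells) in CD45-positive cells of the male and the female, and the CD45-negative libraries had 1.79 and 1.35 CPM. Each cell was put into a class where at least 3 of the 8 markers of a lineage had a UMI and every other lineage had at least 2 fewer. In the order male and female, which holds for every pair of values below, that gave 2576 and 3245 mononuclear phagocytes, 629 and 173 neutrophils, 293 and 68 CD8 T cells, 171 and 108 conventional CD4 T cells and 545 and 556 tumour cells. Regulatory T cells (155 and 33), NK cells (122 and 46), type 1 conventional dendritic cells (cDC1, 146 and 7) and mature dendritic cells (137 and 39) had under 50 cells in the female library and entered no comparison of the sexes.

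The tumour class held only 9.92% of the male and 14.2% of the female CD45-negative cells, and 474 of its 545 male and 462 of its 556 female cells sat at the limit of the gate. Its cells were rich in the keratin genes Krt8 (687 and 814 CPM) and Krt18 (1656 and 2032 CPM), but Epcam (0 and 0.166), Krt7 (0.638 and 0.166) and Cldn4 (1.76 and 3.32) were near 0, and the fibroblast genes Col3a1 (170 and 101) and Col6a3 (467 and 461) were present. Cells with the fibroblast markers held much Krt18 too and went against their name, so that class was not used. Values are therefore also given for all 5496 male and 3905 female CD45-negative cells, a choice made after the data were seen. Xist, expressed from the inactive X chromosome of female cells, stood at 1.66 CPM in the tumour class of the female host against 178 CPM in its phagocytes.

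The proteasome is the protease that degrades ubiquitin-tagged proteins. Its barrel-shaped 20S core encloses the catalytic sites between rings of alpha and beta subunits, and the 19S particle binds, unfolds and feeds substrates into it. Interferon-gamma induces alternative catalytic subunits, among them Psmb10, and the PA28 ring of Psme1 and Psme2, an activator of the core known for its part in making peptides for MHC class I. Psme3 encodes the nuclear PA28 gamma and Psme4 the activator PA200.

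The promoter windows of 4 genes are shown as examples. Psme1 and Psme2 are the interferon-inducible activator genes. Psma7 of the core and Psmd12 of the 19S particle stood higher in tumour cells than in phagocytes, Psma7 past 1.5-fold in the male only. Each window runs from 250 bases before to 50 bases after a transcription start, 5′ to 3′ on the gene's strand (RefSeq, GRCm38.p6). Capitals mark matches on either strand to the core of the interferon-stimulated response element in Psme1 and to TGANNNNGC, the core of the antioxidant response element, in the others. The windows are chr14:55578244-55578543 on the plus strand for Psme1, chr14:55591052-55591351 on the minus strand for Psme2, chr2:180042415-180042714 on the minus strand for Psma7 and chr11:107479278-107479577 on the plus strand for Psmd12.
Psme1: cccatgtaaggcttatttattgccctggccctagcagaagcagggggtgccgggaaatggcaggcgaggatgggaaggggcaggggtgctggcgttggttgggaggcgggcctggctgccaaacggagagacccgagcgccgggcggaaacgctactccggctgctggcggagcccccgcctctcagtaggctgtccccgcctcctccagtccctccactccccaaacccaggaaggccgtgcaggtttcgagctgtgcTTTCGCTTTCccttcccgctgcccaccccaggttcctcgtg
Psme2: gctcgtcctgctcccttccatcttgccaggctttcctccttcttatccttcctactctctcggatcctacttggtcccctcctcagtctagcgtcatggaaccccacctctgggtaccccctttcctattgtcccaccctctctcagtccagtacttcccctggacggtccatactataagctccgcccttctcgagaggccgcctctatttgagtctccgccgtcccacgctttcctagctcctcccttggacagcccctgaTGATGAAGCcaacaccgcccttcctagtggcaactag
Psma7: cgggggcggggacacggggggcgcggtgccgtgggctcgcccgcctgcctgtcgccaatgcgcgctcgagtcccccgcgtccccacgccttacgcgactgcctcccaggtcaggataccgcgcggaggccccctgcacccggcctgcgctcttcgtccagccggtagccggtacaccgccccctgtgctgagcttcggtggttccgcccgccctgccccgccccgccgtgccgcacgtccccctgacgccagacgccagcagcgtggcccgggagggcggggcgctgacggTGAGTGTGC
Psmd12: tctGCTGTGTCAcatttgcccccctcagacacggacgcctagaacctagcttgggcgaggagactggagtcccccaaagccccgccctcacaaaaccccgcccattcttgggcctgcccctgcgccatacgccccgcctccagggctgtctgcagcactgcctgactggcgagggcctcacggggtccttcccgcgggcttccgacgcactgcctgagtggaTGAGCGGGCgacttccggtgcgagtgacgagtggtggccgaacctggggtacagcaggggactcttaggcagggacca
In Psme1 the match reads TTTCGCTTTC, the motif on the minus strand. A second window of Psme2, chr14:55590972-55591271, overlaps the printed one, holds the same match and is not shown. A match describes letters, not a bound site.

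Windows were in the table for 35 of the 43 genes. The core of the interferon-stimulated response element occurred in 4 of the 35 (Psme1, Psmb3, Psmd4 and Psmd9), or 11.4%, against 3.99% of all 27025 genes with a window. TGANNNNGC was found in 19 genes (54.3%, against 45.0% of all genes), among them 8 of 12 core genes (66.7%) and 6 of 14 genes of the 19S particle (42.9%). TTCNNNGAA, the gamma-activated site, was in 1 gene, Psmd2 (2.86% against 9.55%). CCAAT was in 13 (37.1% against 41.1%), and TGACGTCA, the cyclic AMP response element, in 0 of the 35 (against 2.03%). All motifs were searched on both strands, and overlaps between different motifs were not removed.

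Proteasome RNA was lowest in neutrophils and highest in the tumour class, in both sexes. Summed over the 33 core and 19S genes it reached 6089 and 5746 CPM in tumour cells, 4683 and 4667 in CD8 T cells, 4621 and 3983 in conventional CD4 T cells, 4353 and 4528 in phagocytes and 1771 and 1958 in neutrophils. The male CD8 and CD4 T cells overlapped in their counting intervals (4541 to 4829 and 4437 to 4812), as did the female CD8 T cells and phagocytes (4395 to 4953 and 4505 to 4551). Phagocytes came after CD4 T cells in the male and before them in the female. All CD45-negative cells gave 6301 and 5896 CPM. Among the smaller classes the sums were 5459 and 5659 CPM in cDC1, 5399 and 4341 in regulatory T cells, 4861 and 3743 in NK cells and 3946 and 4026 in mature dendritic cells, the female values from few cells.

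The 20S core stood at 2982 and 2698 CPM in tumour cells, 2373 and 2410 in phagocytes, 2673 and 2451 in CD8 T cells, 2554 and 2047 in CD4 T cells and 946 and 1011 in neutrophils. The 19S particle reached 3107 and 3048 CPM in tumour cells, 1979 and 2118 in phagocytes, 2011 and 2216 in CD8 T cells, 2067 and 1936 in CD4 T cells and 826 and 947 in neutrophils. In both parts of the complex the neutrophils lay below every other class of their sex and the tumour cells above the other 4 of these classes.

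**Figure D1:**
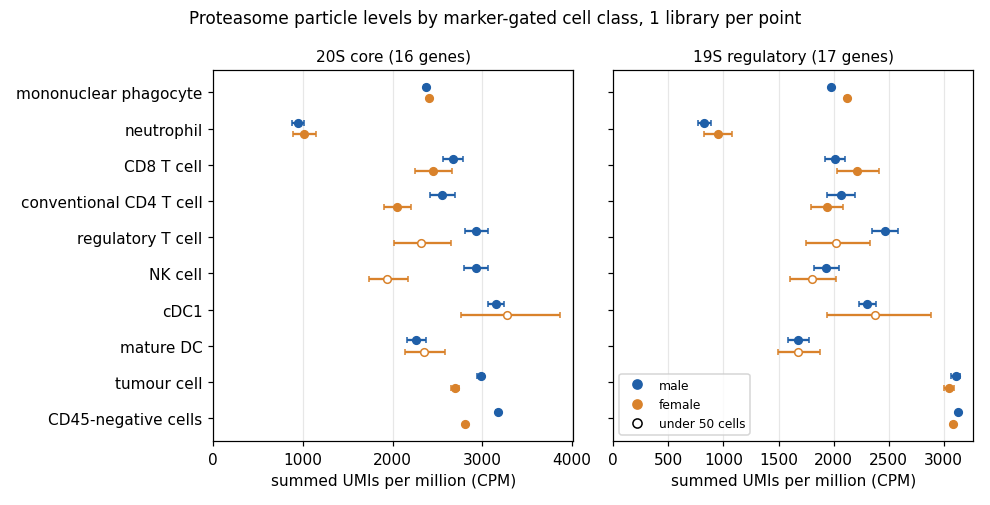
Summed CPM of the 16 core genes (left) and the 17 genes of the 19S particle (right) in each marker-gated class, 1 point per library with its 95% counting interval, male in blue and female in orange, open where under 50 cells. Neutrophils lie lowest in both panels (946 and 1011 CPM for the core) and tumour cells stand high for the 19S particle (3107 and 3048 CPM).

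In neutrophils 36 of the 43 genes were at least 1.5-fold lower than in phagocytes in both sexes, and 0 were higher, where 48.0% of all genes compared were lower and 10.3% higher in both. The 36 take in Psma8 and Psmc3ip, which had 0 UMIs in the female neutrophil library, where a difference was not detectable at this depth. Psma8 had 0 UMIs in the male too, where 3 counts would be 3.20 CPM, little below the 3.68 of male phagocytes. Counting only genes with UMIs in both neutrophil libraries, 34 members were lower, among them 13 of the 16 core genes and 16 of the 17 genes of the 19S particle, where 30.5% of all genes were. The core sum was 0.399-fold (0.373 to 0.426) of the phagocyte level in males and 0.419-fold (0.368 to 0.476) in females. The median of all genes was itself lower in neutrophils, with log2 ratios of -0.80 and -0.52, against core medians of -1.29 and -1.24 and 19S medians of -1.24 and -0.99. After centring on the median gene, 14 members were at least 1.5-fold lower in both sexes, still with Psma8 and Psmc3ip among them. No share of all genes is given after centring, so this count cannot be set against genes at large.

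Psmd1, the large scaffold subunit of the 19S base, had the widest span of levels among members with UMIs in all 5 classes of both sexes. It stood at 14.9 and 16.9 CPM in neutrophils (14 and 4 UMIs), 105 and 114 in phagocytes, 88.0 and 132 in CD8 T cells, 72.6 and 86.3 in CD4 T cells and 141 and 148 in tumour cells. Psmd9, an assembly chaperone, ran from 4.27 and 4.23 CPM in neutrophils (4 and 1 UMIs) to 30.9 and 29.9 in CD8 T cells. These spans rest on few neutrophil UMIs.

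Over these 5 classes the narrowest spans were those of Psme4, Psme2 and Psmd8. Mature dendritic cells lie outside these 5 classes and held more Psme2, 133 and 177 CPM. Psme4 ran from 41.6 and 63.4 CPM in neutrophils to 98.2 and 115 in phagocytes. Psmd8, a lid subunit, stood at 77.8 and 118 CPM in neutrophils, 168 and 199 in phagocytes, 141 and 184 in CD8 T cells, 178 and 189 in CD4 T cells and 171 and 229 in tumour cells. Psmd4, the ubiquitin receptor of the 19S particle, was the 1 gene of that particle not past 1.5-fold in neutrophils of both sexes, at 130.1 and 123 CPM there and 157 and 170.2 in phagocytes.

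Neutrophils were shallow, with medians of 1254 and 1189 UMIs per cell against 10547 and 8440 in phagocytes, and single cells weighed on their sums. In the male neutrophils 1 cell held 40.5% of the UMIs of Psmd7 and 1 held 22.5% of those of Psma6. Without the 5% deepest cells of each class, the neutrophil to phagocyte log2 ratio of the 33 genes was -1.66 against -1.30 in males and -1.41 against -1.21 in females. The 8 phagocyte markers summed to 1013 and 1886 CPM in the neutrophils and to 8057 and 8506 CPM in the phagocytes, and their part in the ratio was not tested.

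In tumour cells 12 of the 43 genes were at least 1.5-fold higher than in phagocytes in both sexes and 2 were lower, where 33.1% of all genes compared were higher and 20.8% lower in both, so the members were not called higher more often than genes at large. The higher genes were Psmd4, Psmd7, Psmd11, Psmd12, Psmc1 and Psmc5 of the 19S particle, Psma5, Psma6 and Psmb4 of the core, the chaperones Psmd5 and Psmd10, and Psmc3ip. The 19S sum was 1.57-fold (1.54 to 1.60) the phagocyte level in males and 1.44-fold (1.42 to 1.46) in females, and the core sum 1.26-fold (1.24 to 1.28) and 1.12-fold (1.10 to 1.14). The median log2 ratios were 0.62 and 0.38 over the 19S genes and 0.15 and 0.12 over the core genes, beside 0.36 and 0.31 over all genes. After centring on the median gene, 4 members were higher and 5 lower in both sexes, the lower ones with Psma8, which had no UMI in the tumour class. No share of all genes is given after centring, so these counts cannot be set against genes at large. Tumour cells and phagocytes came from different libraries, so cell type and library cannot be told apart here.

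Psmd7 (chr8:107580381-107588464, mm10), a lid subunit that pairs with the deubiquitinase Psmd14, measured 344 and 357 CPM in tumour cells against 126 and 134 in phagocytes, or 2.72-fold and 2.66-fold. Psmd12, a lid subunit whose promoter is printed above, measured 342 and 275 CPM against 148 and 147, or 2.31-fold and 1.87-fold. Psma6 of the core measured 351 and 296 CPM against 164 and 168, or 2.13-fold and 1.76-fold. For each of these 3 genes both tumour values lay above both phagocyte values. Psma7, also printed above, was 1.81-fold higher in the male (401 against 221 CPM) but 1.47-fold in the female (322 against 219), short of the threshold.

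Psmb10 (chr8:105935735-105938444, mm10), the interferon-inducible form of a catalytic beta subunit, went the other way. It stood at 89.5 and 83.4 CPM in tumour cells and at 183 and 198 in phagocytes, which put the tumour cells at 0.489-fold (0.447 to 0.533) and 0.422-fold (0.385 to 0.462). In all CD45-negative cells it stood at 112 and 94.9 CPM. The CD8 T cells held 176 and 149.5 CPM, the CD4 T cells 124 and 83.6 and the neutrophils 59.7 and 80.3, so tumour cells and neutrophils were low in both sexes and CD4 T cells in the female.

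Psma8, the alpha subunit known from the proteasome of the testis, had 102 UMIs in 88 male phagocytes (3.68 CPM, 3.0 to 4.46) and 101 UMIs in 83 female phagocytes (3.15 CPM, 2.57 to 3.83). It had 0 UMIs in the tumour class, which allows up to 0.479 CPM in the male and 0.499 in the female at 3 counts. All CD45-negative cells held 1 UMI in each sex. Neutrophils, CD8 and CD4 T cells held 0 too, and their sums allow 3.20 to 12.8 CPM. Male neutrophils (3.20) and male CD8 T cells (3.43) allow little less than the phagocyte level. In the others a difference from phagocytes was not detectable. Psmb6-ps2, whose reads may belong to Psmb6, reached 9.81 and 5.57 CPM in CD4 T cells on 5 and 2 UMIs and had 0 and 0 UMIs in CD8 T cells. Psmc3ip ran from 1.07 and 0 CPM in neutrophils (1 and 0 UMIs) to 29.0 and 15.3 in tumour cells.

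**Figure D2:**
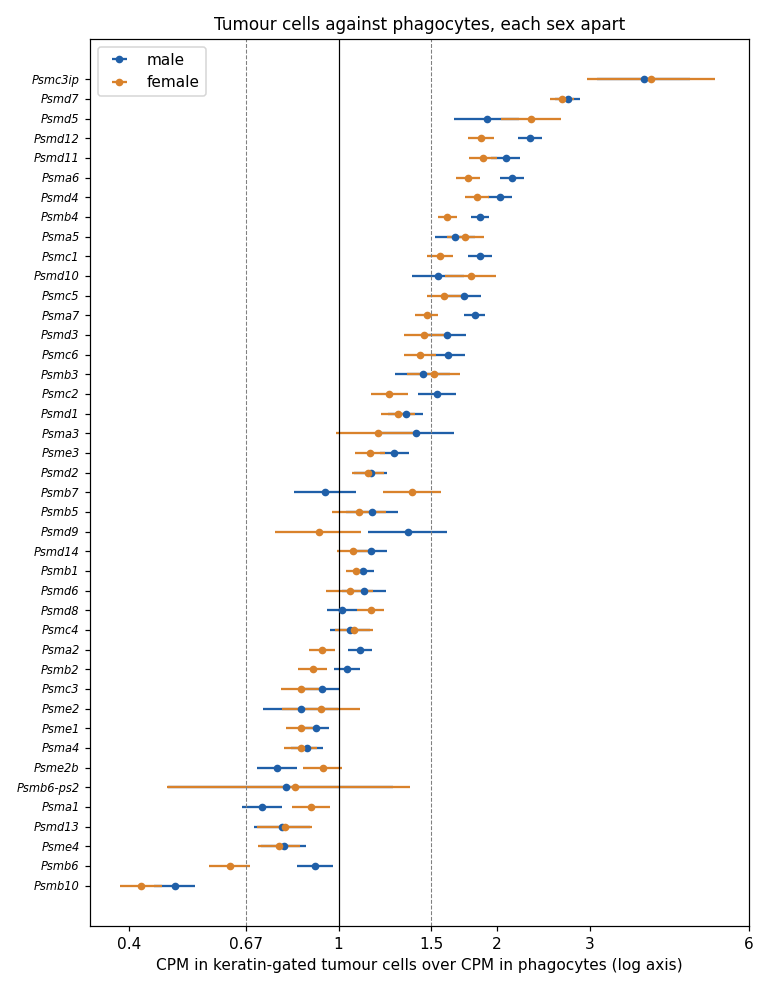
Ratio of the CPM in keratin-gated tumour cells to that in phagocytes for each member with UMIs in both (log axis), male in blue and female in orange, with 95% counting intervals; dashed lines mark 1.5-fold either way. Psmd7 lies at 2.72 and 2.66, and Psmb10 at 0.489 and 0.422.

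The T cells stood closer to phagocytes in these genes. In CD8 T cells 1 member was higher in both sexes (Psmc2, a 19S ATPase) and 2 had a ratio under the limit (Psma8 and Psmb6-ps2). Of all genes compared, 23.9% were higher and 21.9% lower. Psma8 and Psmb6-ps2 were under the limit only through counts of 0, at a depth that could not show a difference in the female. The male sum allows 3.43 CPM at 3 counts, little below the 3.68 and 4.22 CPM of these genes in male phagocytes. In conventional CD4 T cells 2 were higher (Psme2 and Psmb6-ps2) and 2 under the limit, the catalytic subunit gene Psmb6 and, through a count of 0 that could not show a difference, Psma8, where 20.8% of all genes were higher and 21.1% lower. All 4 shares of members were below those of all genes.

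Psme1 was highest in both dendritic classes, and its partner genes in mature dendritic cells. Psme1 (chr14:55578123-55581529, mm10) stood at 582 and 449.7 CPM in mature dendritic cells and at 632 in male cDC1, against 266 and 209 in phagocytes, 241 and 178 in tumour cells, 311 and 265 in CD8 T cells, 294 and 162 in CD4 T cells, 367 and 212 in regulatory T cells, 351 and 172 in NK cells and 104 and 84.6 in neutrophils. The 7 female cDC1 gave 669.9 CPM with an interval from 449 to 962. Both dendritic classes thus lay above all other classes of their sex, and neutrophils below them.

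Psme2 (chr14:55587441-55591113, mm10) encodes the partner of Psme1 in the PA28 ring, and Psme2b (chr11:48945354-48946190) is a near-identical copy. Reads may have been split between these copies, so each count is uncertain and their sum is given. Summed, they stood at 629.6 and 594 CPM in mature dendritic cells, 235 in male cDC1, 158 and 138 in phagocytes, 124 and 129 in tumour cells, 189.8 and 149.5 in CD8 T cells, 255 and 169.9 in CD4 T cells and 108 and 97.3 in neutrophils. Regulatory T cells held 80.8 and 31.8 CPM of Psme2 and 226 and 148 of Psme2b. In the male both genes stood higher there than in cDC1 (57.7 CPM of Psme2 and 177 of Psme2b). NK cells held 49.2 and 18.4 CPM of Psme2 and 117 and 73.5 of Psme2b. The mature dendritic cells were above every other class. In those of the male, Psme2 was 3.9-fold (3.14 to 4.79), Psme2b 4.0-fold (3.59 to 4.45) and Psme1 2.18-fold (1.98 to 2.41) the phagocyte level. In male cDC1 Psme1 was 2.37-fold (2.22 to 2.54), Psme2 1.70-fold (1.34 to 2.11) and Psme2b 1.42-fold (1.25 to 1.62). The core sum of the male mature dendritic cells was 0.954-fold (0.909 to 1.00) that of phagocytes, and that of the male cDC1 1.33-fold (1.29 to 1.37), so the core stood high with Psme1 in cDC1 but not in mature dendritic cells.

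Psme3 was not high in mature dendritic cells, and Psme4 was so only in those of the male. In cDC1 Psme3 stood at 235 CPM in the male (211 to 260.5) and at 231 in the 7 female cells (111 to 425). The male cDC1 value lay above the phagocyte level, while Psme4 was at 67.6 CPM in male cDC1. Psme3 stood at 95.4 and 155 CPM in mature dendritic cells, 163 and 161 in phagocytes, 208 and 185 in tumour cells, 234 and 252 in CD8 T cells, 145 and 145 in CD4 T cells and 68.3 and 84.6 in neutrophils. Psme4 stood at 148 and 102 CPM in mature dendritic cells, 98.2 and 115 in phagocytes and 77.4 and 88.9 in tumour cells. In the male, mature dendritic cells were highest, with an interval (122 to 179) that overlapped that of regulatory T cells (129 CPM, 104 to 159). In the female they lay below phagocytes. Psmb10 stood at 159 and 161 CPM in mature dendritic cells and at 0.601-fold (0.512 to 0.702) of the phagocyte level in male cDC1, while the 7 female cDC1 gave 346 CPM (194 to 572) on 15 UMIs.

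**Figure D3:**
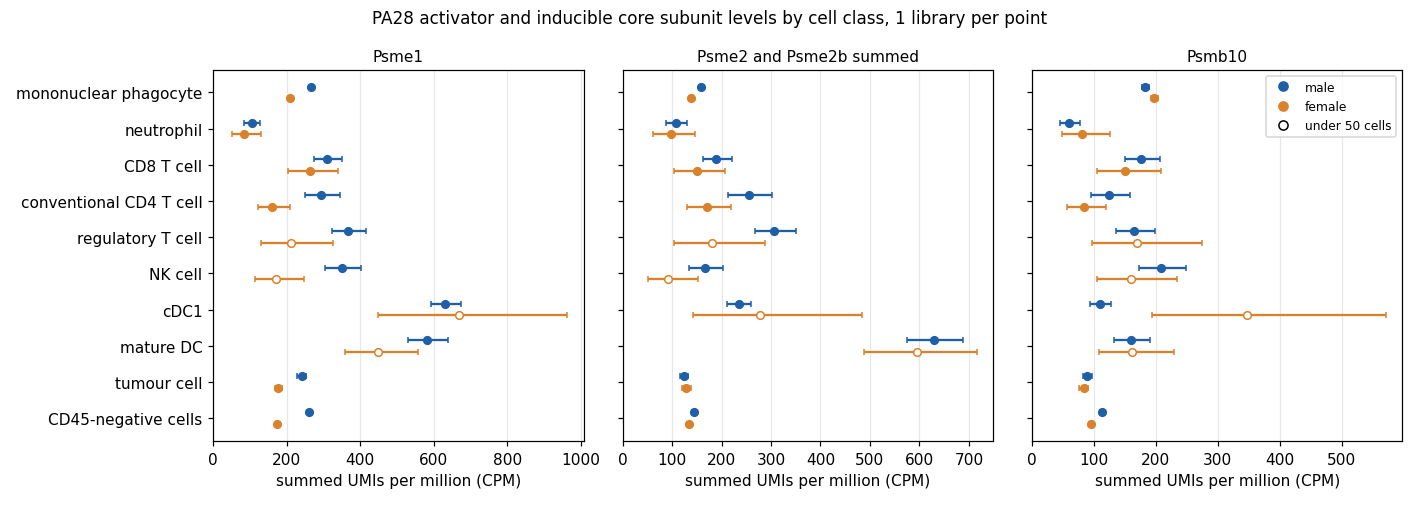
Level in CPM of Psme1, of Psme2 and Psme2b summed, and of Psmb10 in each class, 1 point per library with its 95% counting interval, male in blue and female in orange, open where under 50 cells. Mature dendritic cells lie at 582 and 449.7 CPM for Psme1 and at 629.6 and 594 for Psme2 with Psme2b, and at 159 and 161 for Psmb10.

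Over 14 levels, each of a class in a library, the 32 core and 19S genes with enough UMIs had a median Spearman rho of 0.53 among themselves and of 0.27 with Psme1, Psme2 and Psme2b. Psme1 had a rho of 0.74 with Psme2, 0.82 with Psme2b and 0.60 with Psmb10, and Psmb10 had a median of 0.22 with the core and 19S genes. The 5 genes most like Psme1 among 9808 were Ttc9c (0.93), Cat (0.92), Setdb2 (0.91), Apobec3 (0.90) and Gins3 (0.90). The points share libraries and differ in depth, so these values only describe the levels.

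Between the sexes the core and the 19S particle of phagocytes were nearly level, and Psme1 was higher in the male. The male to female ratio was 0.985 (0.975 to 0.995) for the core, 0.934 (0.924 to 0.945) for the 19S particle and 1.26 (1.22 to 1.30) for Psme1 with Psme2. Of 43 members 1 was at least 1.5-fold higher in the male and 0 in the female, where 7.34% of all genes compared were higher in the male and 8.48% in the female. Psmc3ip was that member (7.64 against 3.9 CPM, 1.96-fold, 1.56 to 2.46), followed by Psme1 (266 against 209, 1.28-fold, 1.23 to 1.32). Psme2 measured 34.0 against 29.6 CPM, 1.15-fold (1.05 to 1.26). The smallest ratios were those of the ATPase Psmc2 (80.9 against 98.2, 0.824-fold) and of Psmd8 and Psmd9 (0.847-fold each). Psme3 was 163 against 161 CPM, Psme4 98.2 against 115 and Psmb10 183 against 198.

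In tumour cells the male to female ratio was 1.10 (1.08 to 1.13) for the core, 1.02 (0.999 to 1.04) for the 19S particle and 1.32 (1.22 to 1.42) for Psme1 with Psme2. In all CD45-negative cells these were 1.13, 1.02 and 1.44. Of 41 members 1 was at least 1.5-fold higher in the male, Psmc3ip (29.0 against 15.3 CPM, 1.90-fold), and 0 in the female, where 6.42% and 7.72% of all genes were. Psme1 stood at 241 against 178 CPM (1.36-fold, 1.26 to 1.47), and at 261 against 175 (1.49-fold, 1.45 to 1.53) in all CD45-negative cells. Psme2 was 28.9 against 27.4 CPM in the tumour class (1.05-fold, 0.848 to 1.31) and 33.7 against 29.3 in all CD45-negative cells (1.15-fold, 1.07 to 1.24). Psme2b was 0.936-fold (0.835 to 1.05) and 1.04-fold (1.01 to 1.08), so the copies differed less between the sexes than Psme1 did. The smallest ratios were those of Psmd8 (171 against 229, 0.746-fold) and Psmb7, a catalytic beta subunit (41.2 against 52.8, 0.779-fold). Psme3 was 1.13-fold, Psme4 0.870-fold and Psmb10 1.07-fold.

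**Figure D4:**
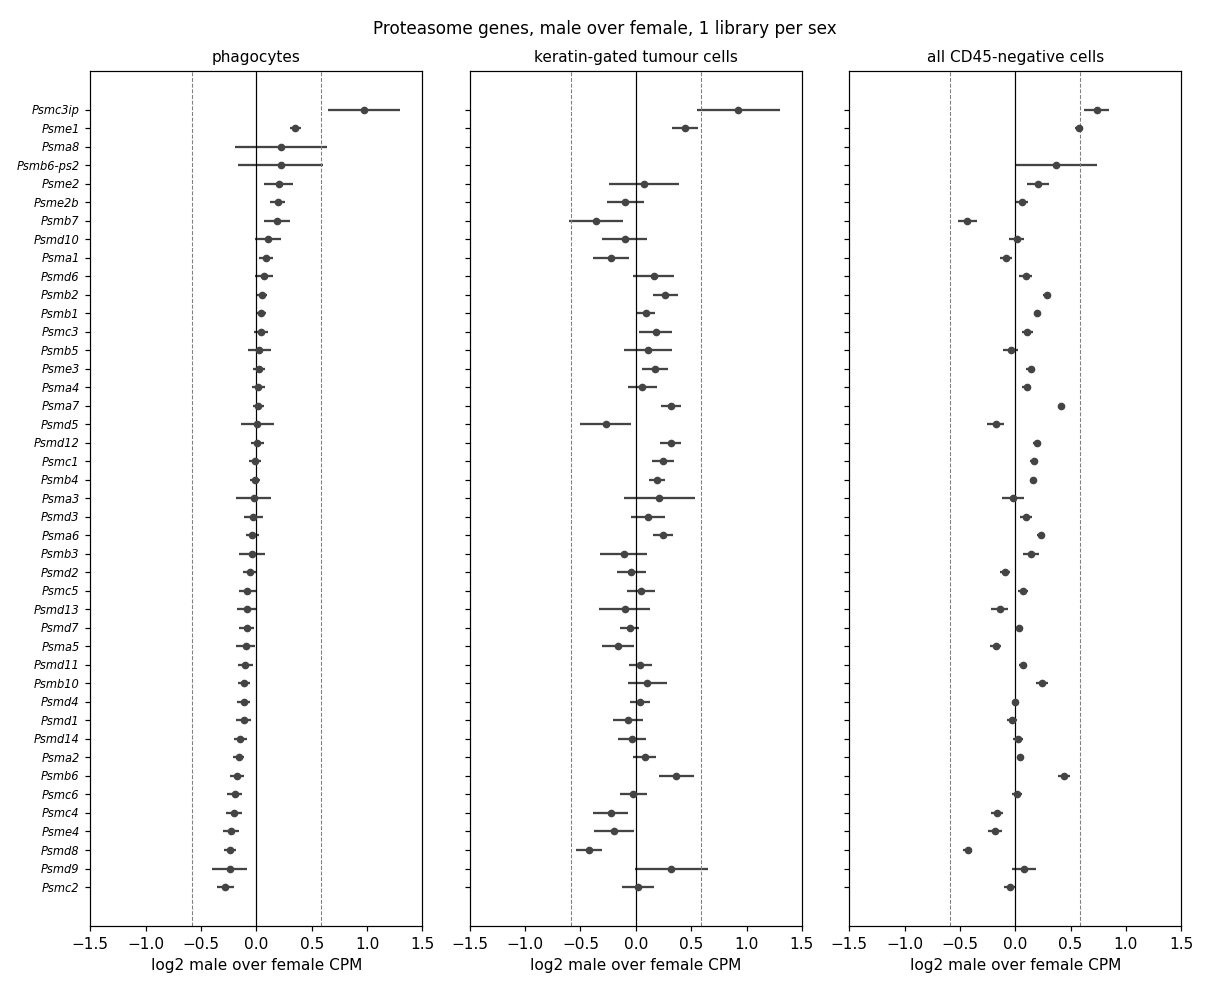
Male over female log2 ratio of CPM for each member with at least 50 UMIs, with 95% counting intervals, in phagocytes, keratin-gated tumour cells and all CD45-negative cells; dashed lines mark 1.5-fold either way. Psmc3ip (1.96-fold, 1.90-fold and 1.67-fold) is the only member past a line in each panel, and Psme1 lies above 0 in all 3.

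In conventional CD4 T cells 5 of the 30 members with 50 UMIs passed 1.5-fold toward the male and 0 toward the female, where 8.89% and 7.43% of all genes did. They were Psme1 (294 against 162 CPM, 1.82-fold, 1.34 to 2.51), Psmb2 (228 against 139, 1.63-fold), Psme2b (1.61-fold), Psmd12 (1.60-fold) and Psmb1 (1.53-fold). The core ratio was 1.25 (1.14 to 1.37) and the 19S ratio 1.07 (0.970 to 1.18). The smallest ratios were those of Psmd11 (0.766-fold, 0.545 to 1.08) and Psmc2 (0.828-fold, 0.531 to 1.30), whose intervals hold 1. Psme2 had only 27 and 16 UMIs, Psme3 (145 and 145 CPM) and Psme4 (80.4 and 78.0) were near level, and Psmb10 was 124 against 83.6 CPM.

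In CD8 T cells 3 of 35 members passed 1.5-fold toward the male (Psmb5, Psmc4 and Psmd3) and 4 toward the female (Psmc2, Psmc6, Psmd1 and Psmd11), where 11.3% and 8.72% of all genes did. The largest ratios were those of Psmb5 (1.67-fold, 0.818 to 3.83) and Psmc4 (1.57-fold, 0.920 to 2.86) and the smallest those of Psmc6 (0.586-fold, 0.393 to 0.890) and Psmd11 (0.646-fold, 0.445 to 0.954). The first pair's intervals hold 1 and the other pair's do not. Psme1 was 311 against 265 CPM, 1.17-fold (0.888 to 1.57), Psme3 0.930-fold, Psme4 0.824-fold and Psmb10 1.18-fold, and Psme2 had 34 and 5 UMIs.

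In neutrophils 1 of 25 members was at least 1.5-fold higher in the male (Psmb6) and 6 in the female (Psma4, Psmc4, Psmd2, Psmd7, Psmd8 and Psme4), where 11.1% and 13.0% of all genes were. The female count was 2 without the 5% deepest cells, 1 with a minimum of 100 UMIs and 12 as a mean of per-cell CPM, and the male count 0 to 3 over all alternatives. No share of all genes is given for these alternatives. Psmb6 (49.1 against 21.1 CPM, 2.32-fold, 0.926 to 7.48) and Psmd14 (1.49-fold, 0.755 to 3.26) were at one end and Psmc4 (0.579-fold, 0.320 to 1.09) and Psma4 (0.596-fold, 0.356 to 1.03) at the other, and each of these intervals holds 1. Psme1 was 104 against 84.6 CPM, 1.24-fold (0.758 to 2.11), Psme2 had 24 and 8 UMIs, and Psme3 was 0.807-fold, Psme4 0.656-fold and Psmb10 0.743-fold. The Psme1 ratio was above 1 in each of the 5 classes compared, with an interval that held 1 in CD8 T cells and neutrophils. All of these classes but the tumour cells share the same male and female CD45-positive libraries, so they are not separate observations of host sex.

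Other genes of the pathway came from lists of assembly chaperones, further subunits and deubiquitinases, transcription factors, ubiquitin genes and stress adaptors, and the interferon-gamma response. Of genes with at least 50 UMIs, none of the first 2 lists was past 1.5-fold between the sexes in any of the 5 classes. Zfand2a, a stress-inducible adaptor of the proteasome, was lower in male tumour cells, 32.5 against 104 CPM or 0.313-fold (0.266 to 0.368). In neutrophils Zfand5, another adaptor, was 249.6 against 381 CPM. Of the transcription factors, Nfe2l2 (86.3 against 55.7 CPM) and Nfe2l1 (53.0 against 80.8) were past 1.5-fold in CD4 T cells, in opposite directions, with intervals that hold 1 (0.894 to 2.78 and 0.374 to 1.15). None with 50 UMIs was past it in the other 4 classes.

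Among 11 genes of the interferon-gamma response, 1 was at least 1.5-fold higher in male and 1 in female phagocytes. Cxcl9, a chemokine that attracts T cells, was 2.70-fold higher in the male (1619 against 599.7 CPM), and Socs1, an inhibitor of the pathway, was higher in the female (39.3 against 71.6). The list's median log2 ratio was 0.04 beside -0.02 over all genes. In tumour cells Irf1 (92.4 against 141 CPM) and Igtp (67.8 against 103) were higher in the female and 0 genes in the male, with a median of -0.47 beside -0.00 over all genes. Psme1, higher in the male there, thus had a log2 ratio of the other sign than this median. So had 3 of the 11 genes, Nlrc5 (1.36-fold), Tapbp (1.11-fold) and Cxcl9 (1.04-fold). In CD8 T cells Igtp, Irgm1 and Gbp2 were higher in the female (0.535-fold, 0.586-fold and 0.601-fold), and in neutrophils Irgm1, Nlrc5 and Igtp (0.471-fold, 0.504-fold and 0.654-fold). In CD4 T cells Tap1 and Nlrc5 were higher in the male (1.56-fold and 1.64-fold).

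Cell cycle genes were higher in most male classes. All 8 passed 1.5-fold in male phagocytes (summed 986 against 485 CPM), from 1.54-fold for Ccnb1 to 2.44-fold for Ube2c. In male tumour cells 5 of 8 did (3083 against 1992 CPM), Mki67, Ube2c, Birc5, Ccna2 and Pclaf. In all CD45-negative cells only Pclaf (1.59-fold) did. There Mki67 (1.25-fold), Ube2c (1.39-fold), Birc5 (1.34-fold) and Ccna2 (1.31-fold) were higher in the male but short of the threshold. In CD4 T cells 6 of 7 were higher in the male (Top2a, Mki67, Pclaf, Cdk1, Ube2c and Birc5), in CD8 T cells 1 of 7 (Cdk1, 1.72-fold), and in neutrophils 4 of 5 (Top2a, Cdk1, Birc5 and Ube2c). These 4 neutrophil values rest on single cells, since 1 male cell held 71.2% of the Top2a UMIs and 93.9% of the Ube2c UMIs, and on 1 to 5 female UMIs. Their part in the sex ratios of the members was not tested beyond a split into cycling cells, with UMIs of at least 3 of these genes, and cells with none. These are ranges of a score and not types, and 175 to 1612 cells of a library lay between them.

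Cycling cells held more of the core and of the 19S particle. In tumour cells the core stood at 3204 and 1959 CPM in 320 cycling and 50 non-cycling male cells, 1.64-fold (1.49 to 1.8), and at 2967 and 2112 CPM in 299 and 56 female cells, 1.40-fold (1.30 to 1.52). The 19S ratios were 1.43 and 1.31. Psme1 was 244 against 248 CPM in the male (0.986-fold, 0.754 to 1.31) and 187 against 147 in the female (1.27-fold, 0.946 to 1.74), both intervals holding 1. In all CD45-negative cells the core ratios were 1.52 and 1.53, the 19S ratios 1.51 and 1.48 and those of Psme1 with Psme2 1.26 and 1.24. In phagocytes the core ratios were 1.21 and 1.17, the 19S ratios 1.22 and 1.19 and those of Psme1 with Psme2 1.02 and 0.920. Cycling cells were deeper, with medians of 14939 and 16992 UMIs in phagocytes against 7263 and 5339 in those without such UMIs, so cycling and depth cannot be told apart.

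A split chosen after the data were seen took cells without a cell cycle UMI. Among them the male to female log2 ratio of the core in tumour cells changed sign. It was -0.11 against 0.14 in the whole class, at 1959 and 2112 CPM on 50 and 56 cells. No interval is given for this ratio, so a true turn cannot be told from counting error. In all CD45-negative cells without such UMIs the core stayed higher in the male, at 2250 CPM in 592 male and 2008 CPM in 458 female cells. In phagocytes without such UMIs the log2 ratio of Psme1 with Psme2 was 0.27 against 0.33. The tumour to phagocyte log2 ratio of the 19S particle was 0.35 in the male and 0.33 in the female among these cells, against 0.65 and 0.53 over all. Among them 4 members passed 1.5-fold upward in both sexes. No share of all genes is given for these cells, so this count cannot be set against genes at large.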

How the data were processed

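Per the labels' protocols, RNA of sorted single cells was captured on the BD Rhapsody system. The deposited matrices hold UMI counts, whole numbers per gene and cell. Per the submitters' processing notes, mm10, Seurat, UMI-tools and CASAVA 1.8 were used; roles and aligner: not given in the sources used here. Barcodes needed 500 UMIs, 250 genes and no more than 25% mitochondrial UMIs to be kept, and cells were gated with 12 lists of 8 markers (3 markers, a lead of 2); T cells were split by Cd4, Cd8a, Cd8b1 and Foxp3. Counts were summed per class and library and given as CPM with exact Poisson intervals, and ratios with exact conditional binomial intervals. These cover counting error only, since cells are not replicates. Ratios between sexes needed 50 cells per library and, for counts of genes, 50 UMIs. Python 3.11.15, numpy 2.4.6, scipy 1.17.1, pandas 2.3.3 and matplotlib 3.10.9 were used, and the computation was tested on simulated data. No doublet caller was run: the gate drops cells with markers of several lineages, and an alternative left out the 5% deepest cells of each class. No cell had the same counts as one in another library (0 pairs); the barcodes are serial names, so shared barcodes could not be counted. Gene positions came from GENCODE (mm10) and promoters from RefSeq (GRCm38.p6). Named in each comparison of the sexes were Psme1, Psme2, Psme3, Psme4, Psmb10 and the 2 members with the largest and the 2 with the smallest ratio; between classes, the 3 with the widest and the 3 with the narrowest span; of the other lists, genes past 1.5-fold, apart from some that are not reported here. Further genes were named after their values were seen. The members and lists were chosen with earlier results of these data known.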

Additional observations from a re-analysis of the deposited data

How the results depend on the processing

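Of 271 values recomputed under alternative choices, 212 stayed within the counting interval of the base value or, for counts, within 1.5 times, 58 moved and 1 reversed; the cause was not tested. Restriction to non-cycling cells, the use of all CD45-negative cells, the addition of Psme2b and all alternatives for ratios to phagocytes were chosen after the data were seen. Reversal was counted by sign, only where the interval of the base value excluded 1, and without regard to the interval of the alternative value. The reversed value was the male to female log2 ratio of the core in tumour cells, -0.11 in 50 and 56 non-cycling cells against 0.14. In all non-cycling CD45-negative cells the core was higher in the male, 2250 against 2008 CPM. The core ratio of the tumour class was 0.11 as a mean of per-cell CPM. The 19S ratio there, whose interval held 1, also changed sign, to -0.12 in non-cycling cells and -0.036 as a per-cell mean, and in neutrophils that of Psme1 with Psme2 did, to -0.090 as a per-cell mean and -0.16 without the 5% deepest cells. In tumour cells the ratio of Psme1 with Psme2 was 0.53 in all CD45-negative cells and 0.25 with Psme2b. In phagocytes the core ratio was -0.0025 after centring on the median gene and -0.071 in non-cycling cells, the 19S ratio -0.078 and -0.14, and that of Psme1 with Psme2 0.24 as a per-cell mean and 0.27 in non-cycling cells. Of members past 1.5-fold toward the male, non-cycling phagocytes had 0. In neutrophils they numbered 0 with 4 markers and a lead of 3, 2 after centring, 0 without the 5% deepest cells, 0 with a minimum of 100 UMIs and 3 with 20, and those higher in the female 2, 2, 12 as a per-cell mean, 2 without the deepest cells and 1 with 100 UMIs. In CD8 T cells those higher in the male numbered 5 as a per-cell mean, 1 with 100 UMIs and 6 with 20, and those higher in the female 2 without mitochondrial and ribosomal genes in the total and 2 without the deepest cells. In female CD4 T cells 2 were higher with 20 UMIs. In tumour cells 2 were higher in the male as a per-cell mean and 2 in non-cycling cells, and in the female 1 with the stricter gate, 1 as a per-cell mean and 3 in non-cycling cells. Of the 5 classes ordered by summed proteasome CPM, 3 male and 2 female classes changed place as per-cell means, and 2 and 2 without the deepest cells. The neutrophil to phagocyte log2 ratio was -1.64 in males with the stricter gate, -1.38 without mitochondrial and ribosomal genes, -0.50 after centring, -1.61 as a per-cell mean and -1.66 without the deepest cells, and -1.46 (stricter gate), -0.69 (centred) and -1.41 (without the deepest cells) in females. The tumour to phagocyte log2 ratio of the 19S particle was 0.29 after centring, 0.58 as a per-cell mean, 0.61 without the deepest cells and 0.35 in non-cycling cells of males, and 0.22, 0.48 without the deepest cells and 0.33 in non-cycling cells of females. The mature dendritic cell ratio of Psme1, Psme2 and Psme2b was 1.73 after centring. After centring, 14 members were lower in neutrophils, and 4 were higher and 5 lower in tumour cells, and 4 were higher among non-cycling cells. For counts of members under these alternatives no share of all genes is given, so they cannot be set against genes at large. No paired analysis was possible because each group is 1 library. Depth limits the neutrophils and T cells most, where single members rest on few UMIs.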
